A study of Mus musculus with 4 samples.

Results

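The expression of 10 imprinted growth-regulating genes (Meg3, Rian, Mirg, Dlk1, Peg3, Mest, Grb10, Plagl1, Sgce and Ndn) was examined in leg muscle (tibialis anterior, TA, by the study's methods and muscle by the labels) of young and old mice. They were found by gene symbol in the row labels of the FPKM values, among 20340 gene labels with a value in all 4 samples, and each of the 10 had 1 row. All animals were wild-type C57BL/6 mice, 3 months old for the samples Young 1 and Young 2 and 20 months old for the samples Old 1 and Old 2, with no treatment or transgene in either group. The comparison of Old with Young asks which genes change with age in muscle that loses fiber size. The sex of each sample is not given in the sources used here, the methods say only that sex was chosen at random, and the design text speaks of triplicates where 2 samples per age are labelled.

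Imprinted genes are expressed mainly from the copy inherited from one parent, and most of them lie in clusters that share a methylated control region. Many act on growth before and shortly after birth, with growth-promoting genes often read from the paternal copy and growth-restraining genes from the maternal copy, and many are reduced after birth in most tissues. In skeletal muscle, Peg3 (also called Pw1) marks progenitor and interstitial cells, Grb10 restrains insulin signaling in fibers, and the maternally expressed RNAs of the Dlk1-Dio3 cluster are found in muscle stem cells. In whole muscle, fewer cells that carry a transcript and less of the transcript per cell cannot be told apart.

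Among the 10 genes, 3 are long noncoding RNAs (Meg3, Rian and Mirg) and 7 encode proteins. Meg3, Rian and Mirg lie in the Dlk1-Dio3 cluster on chromosome 12 and are read from the maternal copy, from which Grb10 is also read in most tissues, while Dlk1, Peg3, Mest, Plagl1, Sgce and Ndn are read from the paternal copy. These are facts of background, since FPKM values do not separate the parental copies. The row of Meg3 also carries the names Mir770 and Mir1906-2, that of Rian the small nucleolar RNA AF357359, and that of Mirg the names Mir3072, Mir369, Mir410 and Mir412. A value of such a row belongs to all RNAs named in it. The microRNAs within these rows are processed to mature forms that the libraries, made from mRNA, do not measure. RefSeq (GRCm38.p6) lists 10 mature forms within these rows, for Mir770, Mir3072, Mir369, Mir410 and Mir412. For Mir1906-2, which was also looked up, none was found within the row of Meg3. No pair of the 10 shares its seed, the bases 2 to 8 by which a microRNA recognizes its targets. Both forms of Mir770 and a form each of Mir369 and Mir410 are given to show what the rows carry, with the seed in capitals. Further microRNAs that have rows of their own, such as Mir154 and Mir409, also lie within the span of Mirg and were not among the 10.
mmu-miR-770-5p: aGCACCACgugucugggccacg
mmu-miR-770-3p: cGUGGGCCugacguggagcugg
mmu-miR-369-3p: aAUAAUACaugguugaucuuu
mmu-miR-410-3p: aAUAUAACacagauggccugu

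The 250 bases upstream of the row's start are given for the 4 genes whose samples did not overlap between the ages (RefSeq promoters, GRCm38.p6, the same assembly as mm10). Capitals mark GCCAT on either strand, the core letters of the motif of YY1, a factor with known sites at imprinted control regions, and GGGGCCCC, the palindromic motif of Plagl1.
Meg3, chr12:109540746-109540995, plus strand: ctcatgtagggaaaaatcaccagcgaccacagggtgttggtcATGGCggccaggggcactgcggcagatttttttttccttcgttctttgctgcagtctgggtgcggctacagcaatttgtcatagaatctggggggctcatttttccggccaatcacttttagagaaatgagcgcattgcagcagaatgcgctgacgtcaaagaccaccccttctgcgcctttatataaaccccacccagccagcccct
Rian, chr12:109603695-109603944, plus strand: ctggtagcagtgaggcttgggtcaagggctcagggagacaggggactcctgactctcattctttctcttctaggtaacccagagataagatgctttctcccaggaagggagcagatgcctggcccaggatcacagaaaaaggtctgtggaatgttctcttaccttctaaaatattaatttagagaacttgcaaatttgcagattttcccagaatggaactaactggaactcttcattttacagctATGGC
Peg3, chr7:6730420-6730669, minus strand: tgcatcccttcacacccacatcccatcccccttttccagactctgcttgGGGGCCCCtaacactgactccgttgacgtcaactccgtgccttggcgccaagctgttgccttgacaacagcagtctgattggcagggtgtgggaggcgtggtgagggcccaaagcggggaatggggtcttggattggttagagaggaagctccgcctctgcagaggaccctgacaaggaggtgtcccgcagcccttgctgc
Ndn, chr7:62348027-62348276, plus strand: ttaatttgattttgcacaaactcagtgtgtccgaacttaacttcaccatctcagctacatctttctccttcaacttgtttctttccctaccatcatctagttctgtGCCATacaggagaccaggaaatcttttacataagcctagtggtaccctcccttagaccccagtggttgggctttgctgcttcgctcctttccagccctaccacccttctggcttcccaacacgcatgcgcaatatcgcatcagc
GCCAT was found once in the windows of Meg3, Rian and Ndn, and was present in 32.9% of 32851 mouse promoter windows of the same length. GGGGCCCC was found once in the window of Peg3, which held no GCCAT, and in 0.889% of all windows. The longer YY1 motif GCCATNTT, which contains GCCAT, was in 3.91% of all windows and in none printed here. Meg3 had 10 CG dinucleotides in its window, Peg3 8, Ndn 5 and Rian 0, against a median of 6 over all windows. RefSeq held windows for 9 of the 10 genes, and that of Grb10 at its row start was the richest in CG dinucleotides with 40. These matches describe letters in a window and not binding.

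The values were FPKM (fragments per kilobase of transcript, relative to all mapped fragments) that the authors computed for each sample. Samples of the same age differed by a similar factor at most genes of moderate level, so each sample was divided by the median over 7228 genes of its ratio to the geometric mean of the 4 samples, which was 1.46 for Old 1, 0.680 for Old 2, 0.689 for Young 1 and 1.47 for Young 2. These values are called scaled FPKM below. Without counts, the read depth is unknown and no counting error can be given. For the 2431 genes at 10 to 30 FPKM, log2 ratios scattered with a robust SD of 0.08 (Old 1 to Old 2) and 0.09 (Young 2 to Young 1), whereas Old 1 to Young 2 gave 0.40. The factor grew toward low values, with a median log2 ratio of Old 1 to Old 2 of 1.00 at 10 to 30 FPKM, 1.18 at 3 to 10 and 1.73 at 1 to 3, and with similar values for Young 2 to Young 1 (0.99, 1.15 and 1.66). A single factor per sample therefore leaves a difference between samples of an age for low members such as Mest, Ndn and Sgce. The labels do not say that samples of an age came from separate animals, so p-values measure only the spread between these samples, which may be technical. Muscle genes such as Mb and Mylpf were high in all samples. Scaling left Mylpf at 15300 and 6110 in Old 1 and 2, and at 6680 and 15500 in Young 1 and 2. A single factor per sample thus fell short for this high gene too. Ckm and Myh4 were listed at 0 in all 4 samples and Tnnt3 in both Old samples, so a value of 0 is described only as listed at 0.

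Meg3 and Peg3 were called lower in old muscle, and no member was called higher. Of the 10 genes, 8 had at least 1 FPKM in at least 2 samples and were tested, and 2 of these 8 were lower in Old at an adjusted p under 0.05 (limma, Benjamini-Hochberg over all tested genes), where 7.94% of the 10266 genes tested were lower. Higher in Old were 0 members by limma, where 5.61% of all tested genes were higher. At an unadjusted p under 0.05, 4 members were lower and 0 higher, against 17.7% and 16.2% of all tested genes. In 4 of the 8, Meg3, Rian, Peg3 and Ndn, both Old samples were below both Young samples in scaled FPKM, which was the case for 28.4% of all tested genes. In 0 members were both Old samples above both Young samples (27.8% of all tested genes), and in the other 4 the ages overlapped. The median log2 fold change was -0.58 over the 8 tested members and -0.01 over all tested genes. An exact permutation test of 2 samples against 2 gives no two-sided p under 0.333, which was its value for Meg3, Rian, Peg3 and Ndn.

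**Figure D1:**
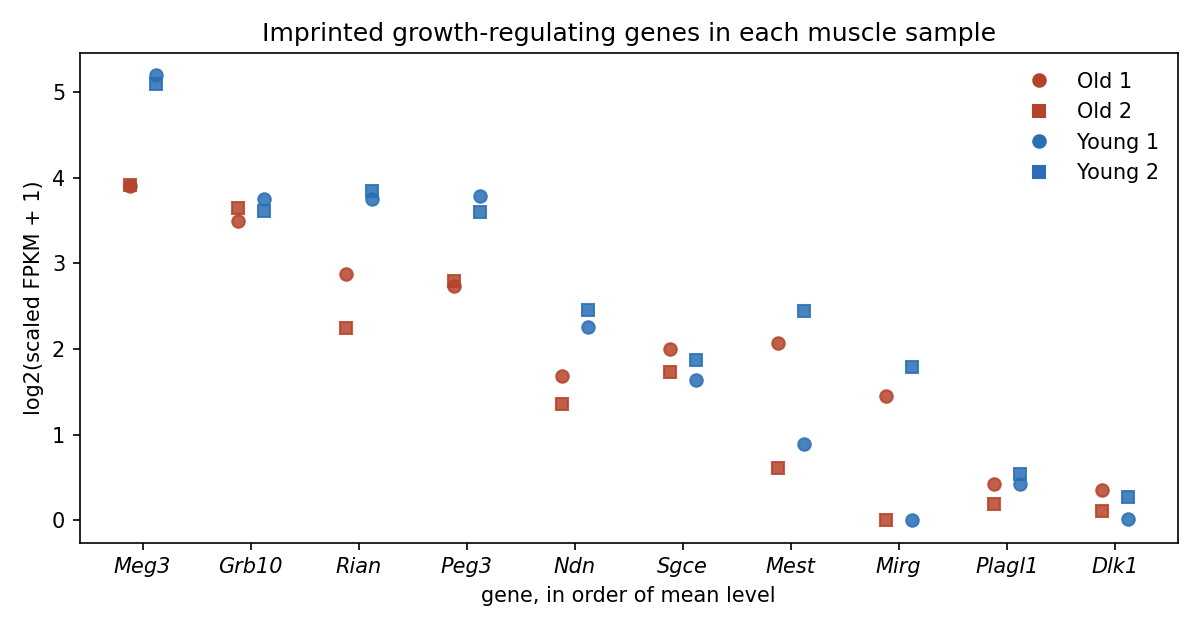
Scaled FPKM of the 10 genes on the log2(value + 1) scale (vertical axis) in each sample, with genes in order of their mean level (horizontal axis), Old samples in red and Young samples in blue. The Old samples lie below the Young samples for Meg3, Rian, Peg3 and Ndn, and those of Mest and Mirg differ more within an age than between ages.

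Meg3, a long noncoding RNA with growth-restraining activity, had the highest level of the 10 genes per length of transcript. Its row lies on chromosome 12 from 109540996 to 109571729 (mm10). The deposited FPKM was 20.4 and 9.60 in Old 1 and 2, and 24.5 and 48.6 in Young 1 and 2. After scaling it was 13.9 and 14.1 in Old 1 and 2, and 35.6 and 33.0 in Young 1 and 2. The samples of an age thus differed far less than the ages, and the mean scaled FPKM was 2.44-fold higher in Young. The log2 fold change was -1.23 (SE 0.06, adjusted p = 0.0205 from limma), lower than that of all but 1.25% of the tested genes. The call was absent without Old 2 (log2 fold change -1.23) and without Young 1 (-1.19), when few genes were called at all. It was also absent without scaling (adjusted p = 1.0 from limma) and with scaling to the same total FPKM (adjusted p = 0.820 from limma). With samples of the same number as a block it was absent too (SE 0.16, adjusted p = 0.136 from limma). These were the 5 alternatives that ended it. The log2 fold change stayed between -1.28 and -1.13 in all 14 alternatives.

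Rian, a host RNA of many small nucleolar RNAs, starts 32.2 kb after the end of the Meg3 row, at 109603945 to 109661711. Its scaled FPKM was 6.34 and 3.75 in Old 1 and 2, and 12.5 and 13.3 in Young 1 and 2. Both Old samples were below both Young samples, by a mean ratio close to that of Meg3 (2.56-fold higher in Young). The log2 fold change was -1.23 as for Meg3, but with an SE of 0.25 it did not pass the threshold (adjusted p = 0.0635 from limma). Its Old samples lay further apart than those of Meg3, and their deposited FPKM differed by a log2 ratio of 1.86, against a median of 1.18 over genes at 3 to 10 FPKM. Without Old 1 the log2 fold change was -1.52 (adjusted p = 5.84e-04 from limma), and without Old 2 it was -0.92 (adjusted p = 0.223 from limma).

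Mirg, the host RNA of the large microRNA group at the end of the cluster (109734981 to 109749457), had a value above 0 in only 1 sample per age. Its deposited FPKM was 2.54 in Old 1 and 3.64 in Young 2, and it was listed at 0 in Old 2 and Young 1. The ages overlapped, and the log2 fold change of -0.17 had an SE of 0.91 (adjusted p = 0.982 from limma). A difference of the size seen for Meg3 was therefore not detectable for Mirg. Dlk1, a membrane protein with EGF-like repeats that holds back fat cell formation, was the lowest of the 10 genes and was not tested. Its deposited FPKM was 0.403 and 0.0545 in Old 1 and 2, and 0.00545 and 0.298 in Young 1 and 2, and no order of the ages can be read from values this low.

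From Dlk1 to Dio3 the cluster spanned 828 kb and held 63 rows. Of these, 55 were listed at 0 in all 4 samples, among them all 48 rows that carried only a microRNA name, and 8 had a value above 0 in at least 1 sample. Values above 0 in all 4 samples were found for 3 rows, those of Dlk1, Meg3 and Rian. Dio3, an enzyme that inactivates thyroid hormone, and its antisense row (with Mir1247) were listed at 0 in Old 2 and Young 1, as Mirg was, and so was the row of Mir127, which overlaps Rtl1. Within 500 kb of Dlk1, the nonmember gene Wdr25 was tested with a log2 fold change of 0.03 (adjusted p = 0.990 from limma), as was the row of Mir127 with a log2 fold change of -0.01 (adjusted p = 0.998 from limma).

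**Figure D2:**
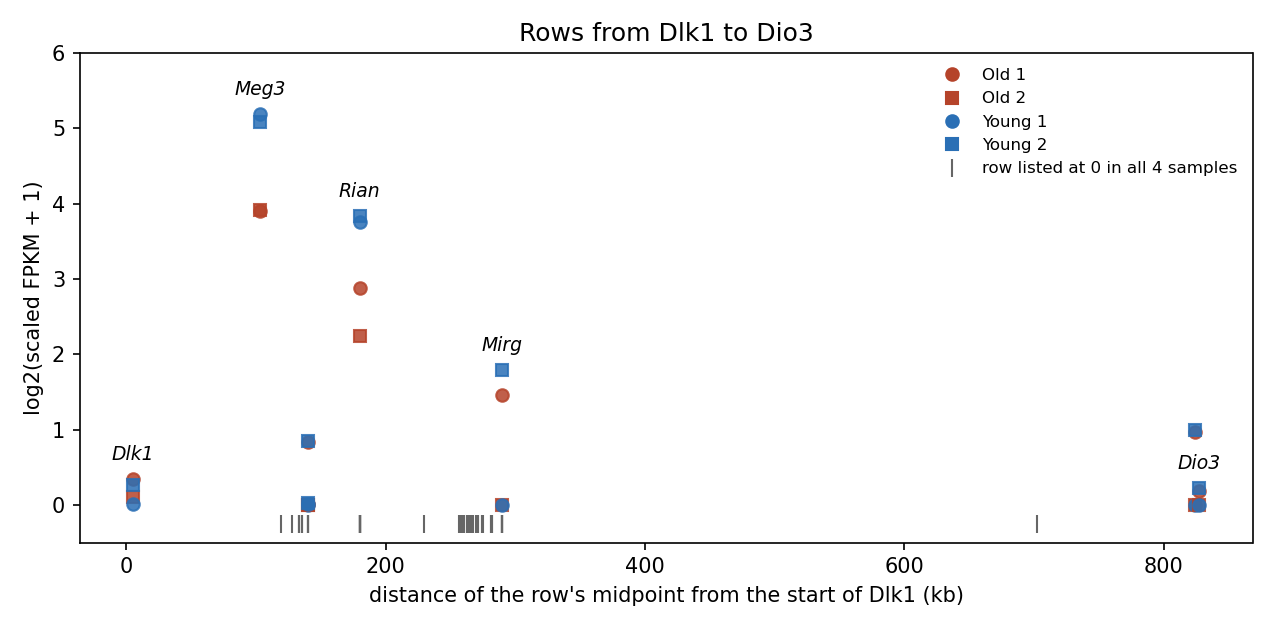
Scaled FPKM on the log2(value + 1) scale (vertical axis) of the rows from Dlk1 to Dio3 by their distance from the start of Dlk1 in kb (horizontal axis), with Old samples in red, Young samples in blue and grey ticks for the 55 rows listed at 0. Meg3 and Rian carry most of the signal, with the Young samples above the Old samples in both.

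Among the paternally expressed genes, Peg3, a large zinc finger protein linked to cell survival and progenitor cells, was the only member called lower. It lies on chromosome 7 from 6703892 to 6730419 on the minus strand (mm10). Its deposited FPKM was 8.27 and 4.03 in Old 1 and 2, and 8.85 and 16.3 in Young 1 and 2. Its scaled FPKM was 5.65 and 5.93 in Old 1 and 2, and 12.8 and 11.1 in Young 1 and 2. The ages did not overlap, and the mean was 2.07-fold higher in Young (log2 fold change -0.93, SE 0.09, adjusted p = 0.0274 from limma). The call was absent without Old 2 (adjusted p = 0.228 from limma), without Young 1 (adjusted p = 0.146 from limma) and with quantile normalization (adjusted p = 0.0763 from limma), and in 8 of 14 alternatives in all, with a log2 fold change between -1.03 and -0.84. Zim1, an imprinted zinc finger gene 7.46 kb from Peg3, had a scaled FPKM of 0.957 and 0.711 in Old 1 and 2, and 1.44 and 1.55 in Young 1 and 2 (log2 fold change -0.45, SE 0.17, adjusted p = 0.181 from limma).

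Ndn encodes necdin, a growth suppressor of nondividing cells from the Prader-Willi region, and lies on chromosome 7 from 62348277 to 62349927. Its scaled FPKM was 2.22 and 1.56 in Old 1 and 2, and 3.76 and 4.48 in Young 1 and 2. Both Old samples were below both Young samples, with a mean 2.18-fold higher in Young, and the log2 fold change of -0.83 (SE 0.16, adjusted p = 0.0609 from limma) did not pass the threshold. Without Old 1 it was -0.96 (adjusted p = 0.0108 from limma), and without Old 2 it was -0.67 (adjusted p = 0.268 from limma). Without either Young sample it did not pass (adjusted p = 0.192 and 0.0530 from limma). Snrpn and Snurf, which share a row in the same region, had a log2 fold change of -0.53 (SE 0.09, adjusted p = 0.0534 from limma), while Ube3a, read from the other parental copy in neurons, had one of 0.28 (SE 0.05, adjusted p = 0.0583 from limma).

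Mest, a protein with a hydrolase fold that rises in expanding fat tissue, had a scaled FPKM of 3.18 and 0.525 in Old 1 and 2, and 0.858 and 4.45 in Young 1 and 2. Old 1 and Young 2 were high and the other two samples low, so that the samples differed more within an age than between ages. Its log2 fold change of -0.33 had an SE of 0.82 (adjusted p = 0.908 from limma), and it became 0.43 without Old 2. The row of Mest, on chromosome 6 from 30733506 to 30896760, runs past the RefSeq end of Mest at 30748466 and over Copg2 on the opposite strand. The labels name a library kit that does not mark strand and the study's methods a stranded one, so it is not settled whether reads of overlapping genes were separated. Copg2 itself had a log2 fold change of 0.02 (SE 0.08, adjusted p = 0.956 from limma).

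Grb10 and Sgce did not pass the threshold, and their ages overlapped. Grb10, an adaptor that binds the insulin and IGF1 receptors and restrains their signal, was the second highest member with a scaled FPKM of 10.3 and 11.5 in Old 1 and 2, and 12.5 and 11.2 in Young 1 and 2. The log2 fold change was -0.10 with an SE of 0.09 (adjusted p = 0.553 from limma). Sgce, the epsilon subunit of the sarcoglycan complex of the cell membrane, had a scaled FPKM of 3.01 and 2.31 in Old 1 and 2, and 2.11 and 2.67 in Young 1 and 2. Its log2 fold change was 0.11 (SE 0.16, adjusted p = 0.760 from limma), and its sign turned without Old 1 (-0.03) and without Young 1 (-0.02). Plagl1, a zinc finger transcription factor that slows the cell cycle and acts on other imprinted genes, was not tested at a deposited FPKM of 0.499 and 0.0930 in Old 1 and 2, and 0.233 and 0.677 in Young 1 and 2.

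**Figure D3:**
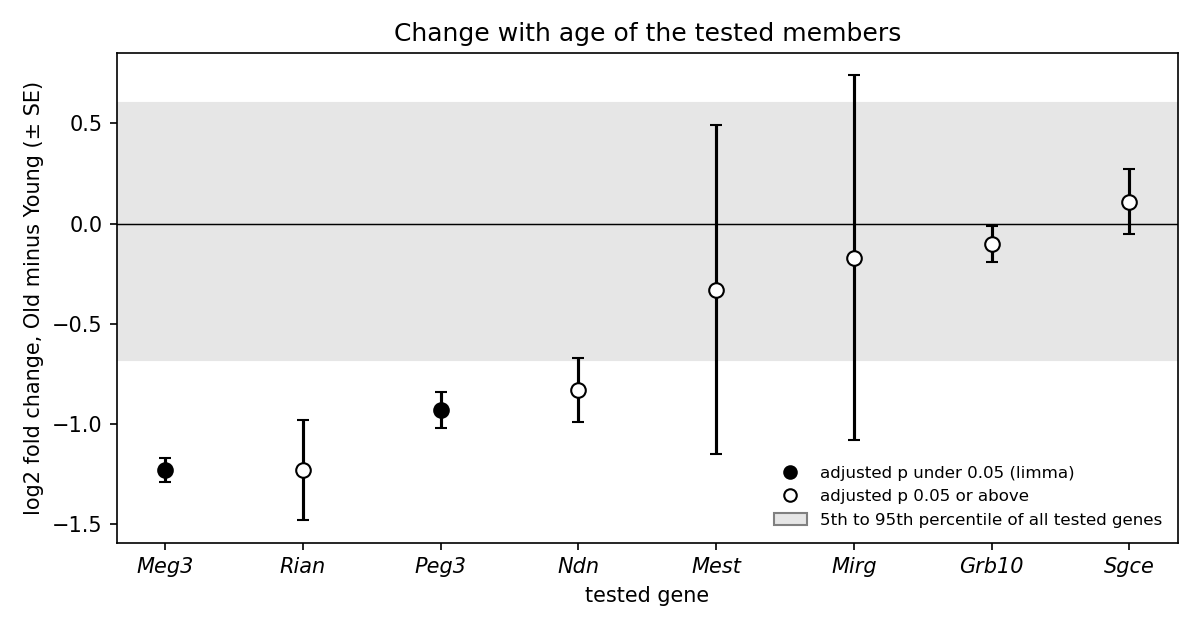
Log2 fold change of Old against Young with its SE (vertical axis) for the 8 tested members (horizontal axis), filled where the adjusted p was under 0.05, over a grey band from -0.68 to 0.60 that holds the 5th to 95th percentile of all tested genes. Meg3, Rian, Peg3 and Ndn lie below the band, and Mest and Mirg have the widest errors.

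By mean scaled FPKM the order was Meg3, Grb10, Rian, Peg3, Ndn, Sgce, Mest, Mirg, Plagl1 and Dlk1. In the Young samples, Rian (12.5 and 13.3), Peg3 (12.8 and 11.1) and Grb10 (12.5 and 11.2) lay within each other's spread. In the Old samples Grb10 (10.3 and 11.5) was above Rian and Peg3, which again overlapped.

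Other genes under imprinting were taken from a list of 67 that excludes the 10 members. On this list, 29 rows were tested and 26 genes did not reach 1 FPKM in at least 2 samples. Another 8 genes had a row only in Old 2 and Young 1, and 3 had no row in any sample. The rows of Old 1 and Young 2 end in chromosome 7, and those of Old 2 and Young 1 in chromosome 8. A missing row is not a value of 0. Lower in Old were 3 of the 29 and higher was 1 (limma), and the median log2 fold change was -0.03, against -0.01 over all tested genes. The background is 7.94% lower and 5.61% higher, so these shares are near those of all genes. Several genes on the list are imprinted only in placenta or brain. Among the 8 genes with a value only in Old 2 and Young 1, for which there is no test, H19, a maternally expressed noncoding RNA that restrains growth, had a deposited FPKM of 104 in Old 2 and 226 in Young 1, and its scaled value was 2.15-fold higher in Young 1. Between these samples, 5.25% of 9293 tested genes with a value above 0 in both were at least 2-fold higher in Young 1.

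Dhcr7, which makes cholesterol in its last step, had a scaled FPKM of 2.35 and 2.01 in Old 1 and 2, and 4.13 and 4.45 in Young 1 and 2 (log2 fold change -0.73, SE 0.09, adjusted p = 0.0338 from limma). Cd81, a tetraspanin of the cell surface, fell by 0.68 on the log2 scale (SE 0.11, adjusted p = 0.0494 from limma), its mean scaled FPKM being 1.61-fold higher in Young. Blcap, whose intron holds Nnat, fell by 0.64 on the log2 scale (SE 0.09, adjusted p = 0.0420 from limma). Asb4, an adaptor of ubiquitin ligases, was the gene of this list called higher, with a scaled FPKM of 7.34 and 7.81 in Old 1 and 2, and 4.23 and 4.40 in Young 1 and 2 (log2 fold change 0.69, SE 0.06, adjusted p = 0.0248 from limma). Whether any of these genes is imprinted in muscle was not examined. The calls of Dhcr7, Blcap and Asb4 were absent in 8 of 14 alternatives each and that of Cd81 in 9 of 14, among them all 3 other scalings, no filter on low values, no trend, and leaving out Old 2 or Young 1.

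**Figure D4:**
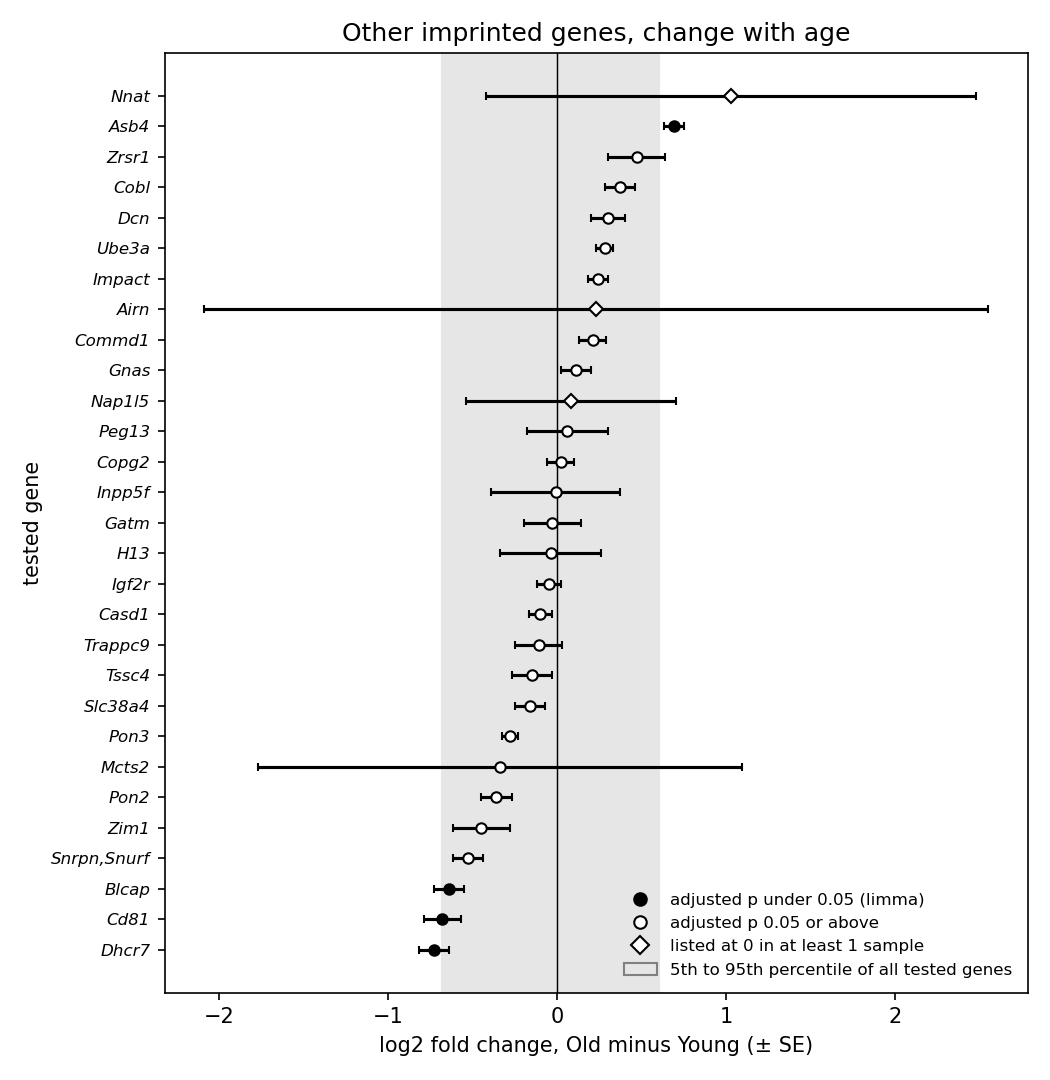
Log2 fold change of Old against Young with its SE (horizontal axis) for the 29 tested rows of other imprinted genes (vertical axis), filled where the adjusted p was under 0.05, with diamonds for genes listed at 0 in at least 1 sample and a grey band for the 5th to 95th percentile of all tested genes. Asb4 is the filled point on the right, and Blcap, Cd81 and Dhcr7 are the filled points on the left.

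The rows within 500 kb of a member were also counted. Leaving the members out and taking each neighbor once, 142 rows lay in these windows, 29 were tested, 1 was higher and 1 was lower (limma), where 5.61% and 7.94% of all tested genes were, and their median log2 fold change was 0.02. The lower neighbor was Col1a2, a collagen gene 133 kb from Sgce, with a log2 fold change of -1.54 (SE 0.09, adjusted p = 0.0219 from limma). The higher was Fuca2, an enzyme that removes fucose, 369 kb from Plagl1, with a log2 fold change of 0.33 (adjusted p = 0.0437 from limma).

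Dlk1 is related to Notch ligands, and the Notch pathway was therefore counted. Of 23 genes, 19 were tested, with 6 lower and 1 higher in Old (limma), where 7.94% and 5.61% of all tested genes were, and a median log2 fold change of -0.09. The receptors Notch1 (log2 fold change -0.66, SE 0.06), Notch3 (-0.82, SE 0.08) and Notch4 (-0.99, SE 0.07) fell, with adjusted p = 0.0274, 0.0276 and 0.0227 from limma, while Notch2 had a log2 fold change of -0.05 (adjusted p = 0.929 from limma). So did the ligand Jag2 (log2 fold change -0.61) and the glycosyltransferases Lfng (-1.23) and Rfng (-0.32), which modify the receptors. The target gene Hes1 rose, with a scaled FPKM of 13.6 and 13.9 in Old 1 and 2, and 5.91 and 6.18 in Young 1 and 2 (log2 fold change 1.06, SE 0.05, adjusted p = 0.0205 from limma). The related targets Hey1 and Heyl had log2 fold changes of -0.47 and -0.09 and did not pass the threshold (adjusted p = 0.128 and 0.583 from limma).

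Grb10 acts on the insulin and IGF1 receptors, and of 23 genes of that pathway 20 were tested, with 2 lower and 1 higher in Old (limma), shares near the 7.94% and 5.61% of all tested genes, and a median log2 fold change of -0.16. Igfbp5, a secreted IGF-binding protein, had a scaled FPKM of 104 and 103 in Old 1 and 2, and 32.5 and 28.1 in Young 1 and 2 (log2 fold change 1.74, SE 0.10, adjusted p = 0.0214 from limma). Igfbp3, another IGF-binding protein, fell by 0.37 on the log2 scale (SE 0.05, adjusted p = 0.0350 from limma). Grb14, an adaptor of the same family as Grb10, had a log2 fold change of 0.33 (SE 0.08, adjusted p = 0.0896 from limma).

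Some markers of the cells that muscle holds moved with age beside Meg3 and Peg3, and their part in the result was not tested. Of all tested genes, 7.94% were lower and 5.61% higher in Old. Of 10 fibroblast markers, 4 were lower (Col1a1, Col1a2, Col3a1 and Ly6a) and 0 higher, and their summed scaled FPKM was 322 and 345 in Old against 443 and 409 in Young, while Pdgfra, the receptor that defines these cells, had a log2 fold change of 0.16 (adjusted p = 0.358 from limma). Of 6 tested endothelial markers 2 were lower (Flt1 and Tie1), with sums of 79.5 and 87.3 in Old and 111 and 101 in Young. The receptors Kdr and Tek had log2 fold changes of 0.03 and 0.01 (adjusted p = 0.916 and 0.996 from limma), and their ages overlapped. Of 5 tested leukocyte markers 1 was lower (Lyz2), with sums of 18.3 and 14.4 in Old and 23.3 and 27.6 in Young. Of 6 tested adipocyte markers 1 was lower (Plin4), with sums of 363 and 304 in Old and 382 and 464 in Young. These sums were made up mostly of Fabp4, Plin4 and Cfd, the last listed at 0 in Old 2 and Young 1, while Adipoq, the adipocyte hormone adiponectin, had a scaled FPKM of 5.80 and 4.37 in Old and 1.99 and 2.93 in Young (log2 fold change 0.82, adjusted p = 0.0888 from limma). The ages overlapped for Plin1 and Cidec (log2 fold change 0.25 each), Fabp4 (-0.13) and Cfd (-0.15). Of 4 tested satellite cell markers 0 passed the threshold in either direction (limma), with 1 lower at an unadjusted p under 0.05, and Pax7 was below the filter. Their sums, 1630 and 923 in Old and 790 and 1320 in Young, were made up mostly of the row of Des, a fiber gene, which also carries the name Speg. Slow-fiber markers were higher in 6 of 6 tested, with sums of 877 and 679 in Old and 52.2 and 60.5 in Young, and the hemoglobin alpha row was higher at 415 and 408 in Old against 57.3 and 60.3 in Young. Of 5 tested fast-fiber and general muscle markers 1 was lower, Tnnt3, with a listed 0 in each Old sample.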

How the data were processed

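The 4 muscle mRNA-seq samples were grouped by the ages in the labels. Before deposition the authors trimmed the reads, discarded PCR duplicates, mapped to mm10 with TopHat2 (2.0.10) and RefSeq gene models, and ran Cufflinks (2.1.1) on each sample to give the deposited FPKM of each locus. Cuffdiff, which the authors used for differences, needs aligned reads and was not repeated.

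Rows with a value in all 4 samples (20605) were kept, 542 with a value in some samples were left out of the tests, and 1 incomplete last line per sample was dropped. The rows used here end in chromosome 7 or 8, in text order of names, and loci past that point were not analysed here. Rows of 1 label were summed to 20340 labels. Row starts were raised by 1 to count from 1, after which 8 of 10 members matched their RefSeq start. FPKM was scaled by the median ratio, and log2(scaled FPKM + 1) was fitted with limma 3.58.1 in R 4.3.3 (eBayes with trend, two-sided, Benjamini-Hochberg) over genes that reached 1 FPKM in 2 or more samples. Scaling was made the main setting because samples of an age differed by a factor at most genes, and the unscaled values were an alternative. Fold changes on this scale understate the change of low genes. The fit was also run on simulated data with independent noise and a single factor per sample. The simulated data lack the growth of the factor toward low values and the linked deviations between the real samples. That run therefore does not bear on the calls made here. Tables, permutation tests and plots used scipy 1.17.1, matplotlib 3.10.9, numpy 2.4.6 and pandas 2.3.3 in Python 3.11.15.

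The members, the lists and the settings were chosen with earlier results of these data known. The text names all members, and the genes of the imprinted, Notch and insulin receptor lists and the neighbors past the threshold, except for results that are not reported here, and a few further genes chosen after their values were seen (Zim1, Snrpn, Ube3a, Copg2, Wdr25, Pdgfra, Grb14, Dio3, Notch2, Hey1, Heyl and Adipoq). Alternatives were other scalings, pseudocounts, filters and row choices, limma without trend, blocks, and leaving out each sample.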

Additional observations from a re-analysis of the deposited data

How the results depend on the processing

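Of all genes tested, 576 were higher and 815 lower in Old, with 0 and 2 members and 1 and 3 other imprinted genes. These numbers stayed within 1.5 times with the highest row per symbol and with a pseudocount of 0.1. The unscaled FPKM gave 18 and 13 genes, 0 members and 0 other imprinted genes. Quantile normalization gave 91 and 136 genes, 1 lower member and 0 other imprinted genes, scaling to the same total gave 7 and 5 genes with 0 and 0, no filter gave 114 and 202 genes with 1 and 0, and no trend gave 103 and 181 genes with 1 and 0. Requiring 1 FPKM or more in every sample gave 1222 and 1302 genes, 4 lower members, and 3 higher and 6 lower other imprinted genes. With the replicate block there were 24 and 21 genes, 0 members (Meg3 adjusted p = 0.136 from limma) and 0 other imprinted genes. Same-numbered samples deviated from the mean of their age with a correlation of -0.903 across 10266 genes, which are not independent replicates. The crossed pairs as a block, added after seeing the data, gave 3242 and 3503 genes, 6 lower members, and 8 higher and 10 lower other imprinted genes. When 1 sample was left out, in which case the lone sample is assumed to vary like the others, higher genes ranged from 0 (without Old 2 or Young 1) to 619 and lower genes from 1 to 773, lower members from 0 to 4, and other imprinted genes from 0 to 1 higher and from 0 to 4 lower. Under the same omissions the sign turned for Mirg (-1.14 to 0.61) and Mest (-1.16 to 0.43), positive without Old 2, and for Sgce (-0.03 to 0.27), negative without Old 1 (-0.03) and without Young 1 (-0.02). Meg3 kept its call in 9 of 14 alternatives and Peg3 in 6 of 14, Rian passed in 4 and Ndn in 3, and none of the 4 changed direction. The cause was not tested. Mirg and Mest were not tested without Old 1, without Young 2 or under the strictest filter. With the read depth unknown, no counting error can be given for the low values of Dlk1, Plagl1 and Mirg.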

Other observations

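Besides H19, 7 imprinted genes on the list had rows only for Old 2 and Young 1, so they have no replicate check and no test. Igf2, the growth factor gene beside H19, had an FPKM of 3.84 in Old 2 and 4.96 in Young 1, and the cell-cycle inhibitor Cdkn1c had 3.24 and 3.62. Nap1l4 had 65.8 in Old 2 and 56.5 in Young 1, and Osbpl5 had 2.71 and 2.68. Phlda2 and Ascl2 were listed at 0 in both, and Kcnq1ot1 had an FPKM of 0.0266 and 0.0224.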
